A study of Mus musculus with 4 samples.

Results

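The genes described here are 10 that mark epithelial identity: the splicing factors Esrp1 and Esrp2, the transcription factors Grhl1, Grhl2 and Ovol1, the sorting genes Ap1m2 and Rab25, and the membrane proteins St14, Spint1 and Epcam. They were chosen by name, with earlier results of these data known, and all 10 were found among the 24346 genes of the RNA-seq tables. RNA was measured in 2 libraries of 10p-HFSCs and 2 of 48p-HFSCs, hair follicle stem cells cultured for 10 or 48 passages. The cells of both groups came from the dorsal skin of C3H/HeN mice, 4 weeks old, were sorted as CD49f+CD34+ cells and were passaged about once a week in M-CnT, a serum-free medium without feeder cells. The comparison asks what changed in the cells during long-term culture. Nothing states that the libraries of a group came from separate cultures, so p-values measure only the spread between these libraries, which may be technical, and passage number cannot be told apart from any other difference between the cultures.

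Epithelial cells hold together through adhesion molecules, and they send proteins to separate apical and basolateral surfaces. ESRP1 and ESRP2 bind RNA and direct the epithelial choice of exons in many transcripts, while the grainyhead-like and OVO transcription factors sustain epithelial genes and restrain mesenchymal ones. AP1M2 and RAB25 act in polarised trafficking, and matriptase, encoded by St14, is a surface protease of the epidermis that is held in check by the inhibitor encoded by Spint1. The values are FPKM, fragment numbers scaled to transcript length and to the mapped fragments of the library, for whole genes, so they give the level of a splicing factor but not the splicing of its targets.

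The libraries differed in depth and in their length profile. Relative depth, read from the steps between low values, was 100% and 71.6% in the 10p libraries and 82.9% and 46.7% in the 48p libraries, with the deepest set to 100%. Summed FPKM lay between 581516 and 719012 in 3 libraries and was 1414953 in 48p replicate 2. The defining genes of basal keratinocytes, 6 in number, were present in all libraries. They summed to 3011 to 3651 FPKM in the 10p and 8134 to 12627 FPKM in the 48p libraries. Most of this was Krt5 and Krt14, both higher in the 48p libraries but without passing the test (adjusted p = 0.18 and 0.28, limma). Itga6, at 31.4 and 20.8 FPKM in 10p-HFSCs, was higher in 48p-HFSCs (adjusted p = 0.014, limma), as were Itgb4 and Lamb3 (0.049 and 0.022). Col17a1 overlapped between the groups, with means of 242 FPKM in 10p-HFSCs and 185 FPKM in 48p-HFSCs. Of 6 hair follicle stem cell markers, Cd34 reached at most 0.234 FPKM in any library. It is the gene of a protein by which the cells had been sorted. Lhx2, Lgr5 and Nfatc1 reached at most 0.0303 FPKM in any library. Krt15 was at 136 and 82.6 FPKM in 10p-HFSCs and at 425 and 18.8 FPKM in 48p-HFSCs, so the 48p replicates were far apart. Sox9 was lower in 48p-HFSCs (adjusted p = 0.039, limma), and the 6 markers summed to 127 to 182 FPKM in the 10p and 27.2 to 445 FPKM in the 48p libraries.

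Among the 10 genes, 4 were called higher in 48p-HFSCs (Ap1m2, Ovol1, Rab25 and St14) and 0 lower. A call required an adjusted p under 0.05 by limma and a log2 difference of at least 1 on the log2(FPKM + 1) scale, a scale that understates the change of low genes. Over all 11018 genes tested 10.8% were called higher and 9.15% lower (1189 and 1008 genes, or 620 and 820 after rescaling to TPM, a common sum per library). At an unadjusted p under 0.05 the members gave 5 higher and 0 lower, against 2039 higher and 2079 lower among the 11018 genes. All 10 passed the filter on low values, Ap1m2 and Ovol1 only through the 48p libraries. The filter thus favoured a higher 48p level in Ap1m2 and Ovol1, and the counts and the median of the 10 genes are a description. Both 48p libraries lay above both 10p libraries for 6 of the 10 genes, against 31.7% of all genes, and below them for 1, against 34.3%. The median log2 difference was 0.78 for the 10 genes and -0.03 for all genes tested. Fewer cells of a type and less RNA per cell cannot be told apart in such bulk samples.

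**Figure D1:**
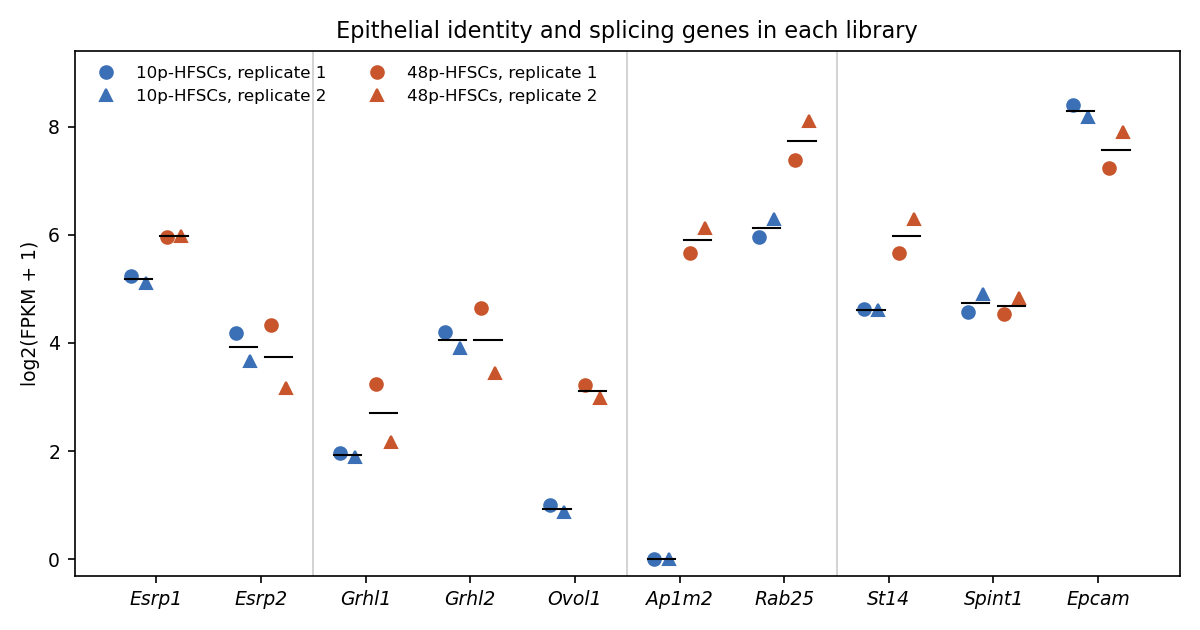
FPKM of the 10 genes on a log scale (log2(FPKM + 1)), with a point for each library of 10p-HFSCs and 48p-HFSCs and a black line at the mean of each group. Ap1m2 is listed at 0 in both 10p libraries and at 49.9 and 68.5 FPKM in the 48p libraries, and the libraries of Esrp2, Grhl2 and Spint1 overlap.

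Of the splicing factors, Esrp1 was higher in both 48p libraries and Esrp2 was not separated between the groups. Esrp1 (chromosome 4, 11331933-11386783, minus strand, mm10) was at 36.8 and 33.7 FPKM in 10p-HFSCs and at 61.2 and 62.2 FPKM in 48p-HFSCs. The groups did not overlap, and the replicates lay close together. The means were 35.3 ± 2.22 and 61.7 ± 0.743 FPKM (SD, n = 2 libraries each), a ratio of 1.75. The log2 difference was 0.79 (95% interval 0.20 to 1.38), with an adjusted p of 0.069 by limma, which did not pass the test. It was 0.22 (adjusted p = 0.77) as TPM and 0.98 (adjusted p = 0.024) with a term for transcript length and GC, and with the replicate block the adjusted p was 0.035. All of these lay under the fold limit of 1. Esrp2, the paralog with overlapping targets (chromosome 8, 106130319-106136974, minus strand), was at 17.3 and 11.8 FPKM in 10p-HFSCs and at 19.1 and 7.97 FPKM in 48p-HFSCs. Its groups overlapped, and the log2 difference was -0.19 (95% interval -1.28 to 0.91, adjusted p = 0.78, limma). The ratio of Esrp1 to Esrp2 within a library, which no library-wide scaling alters, was 2.13 and 2.87 at 10 passages and 3.21 and 7.81 at 48 passages. The longest stretch shared by their transcripts was 35 bases.

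Of 12 other splicing regulators 9 were tested, 0 were called higher and 1 was called lower by limma, and at an unadjusted p under 0.05 there were 0 higher and 3 lower. The gene called lower was Mbnl1, a muscleblind RNA-binding protein, which fell from 45.9 ± 1.64 to 20.5 ± 2.88 FPKM (SD, n = 2 each, adjusted p = 0.028, limma). With a term for length and GC its log2 difference was -0.89, under the fold limit. The median log2 difference of the 9 genes was -0.27.

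Of the transcription factors, Ovol1 rose, and Grhl1 and Grhl2 did not pass the test. Ovol1 encodes a zinc finger protein that accompanies the exit of keratinocytes from the basal state. The gene is on chromosome 19 at 5549136-5560646 of the minus strand. It was at 0.997 and 0.835 FPKM in 10p-HFSCs and at 8.31 and 6.95 FPKM in 48p-HFSCs, so the groups lay well apart. The ratio of means was 8.33, and the log2 difference was 2.17 (SE 0.26, adjusted p = 0.0043, limma), rank 453 by size among 1189 genes called higher. As TPM, which moved the median of all genes from -0.03 to -0.55, the difference of Ovol1 was 1.81 and its adjusted p 0.078. Without 10p replicate 1 the difference was 2.23, and without 10p replicate 2 it was 2.11. Each of these fits left a lone 10p library, so the sizes do not show that the call holds.

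Grhl1 and Grhl2 are grainyhead-like factors that bind the regulatory regions of epithelial junction and barrier genes. Grhl2 (chromosome 15, 37233036-37363569, plus strand) was at 17.5 and 14.0 FPKM in 10p-HFSCs and at 24.1 and 9.89 FPKM in 48p-HFSCs. These groups overlapped, with a log2 difference of -0.01 (95% interval -1.09 to 1.06, adjusted p = 0.99, limma). Grhl1 (chromosome 12, 24572283-24617391, plus strand) was at 2.91 and 2.73 FPKM in 10p-HFSCs and at 8.51 and 3.51 FPKM in 48p-HFSCs. Both 48p values lay above both 10p values, but the 48p libraries differed more from each other than the lower of them did from 10p-HFSCs. The log2 difference was 0.78 (95% interval -0.22 to 1.78, adjusted p = 0.22, limma). It was 1.32 without 48p replicate 2 and 0.24 without 48p replicate 1. Grhl2 exceeded Grhl1 6.03-fold and 5.12-fold in the 10p libraries and 2.84-fold and 2.82-fold in the 48p libraries.

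Of 10 related epithelial transcription factors 9 were tested, 4 were called higher and 1 lower, with a median log2 difference of 0.67. Ehf passed the filter on low values only through the 48p libraries and Ovol2 only through the 10p libraries. Grhl3 and Zfp750 reached 1 FPKM in 10p replicate 1 (1.12 and 1.09) but needed a 48p library to pass. The filter thus favoured a difference in these genes, and the counts and the median are a description. Grhl3, another grainyhead-like gene and a factor of the skin barrier, rose from 0.878 ± 0.342 to 4.34 ± 1.25 FPKM (adjusted p = 0.022, limma), a call that was lost without the filter (adjusted p = 0.060) and as TPM (0.21). Zfp750, a factor of late epidermal differentiation, and Ehf, an ETS factor of epithelia, rose from 0.872 to 9.63 FPKM and from 0.0175 to 4.47 FPKM. Their adjusted p-values by limma were 0.0095 and 0.0044, and the call of Zfp750 was lost as TPM (adjusted p = 0.066). The gene called lower was Ovol2, the paralog of Ovol1, at 4.01 and 4.45 FPKM in 10p-HFSCs and at 0 and 0.207 FPKM in 48p-HFSCs (log2 difference -2.25, adjusted p = 0.0031, limma). Ovol1 made up 19.9% and 15.8% of the summed FPKM of the pair at 10 passages, against 100% and 97.1% at 48 passages.

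**Figure D2:**
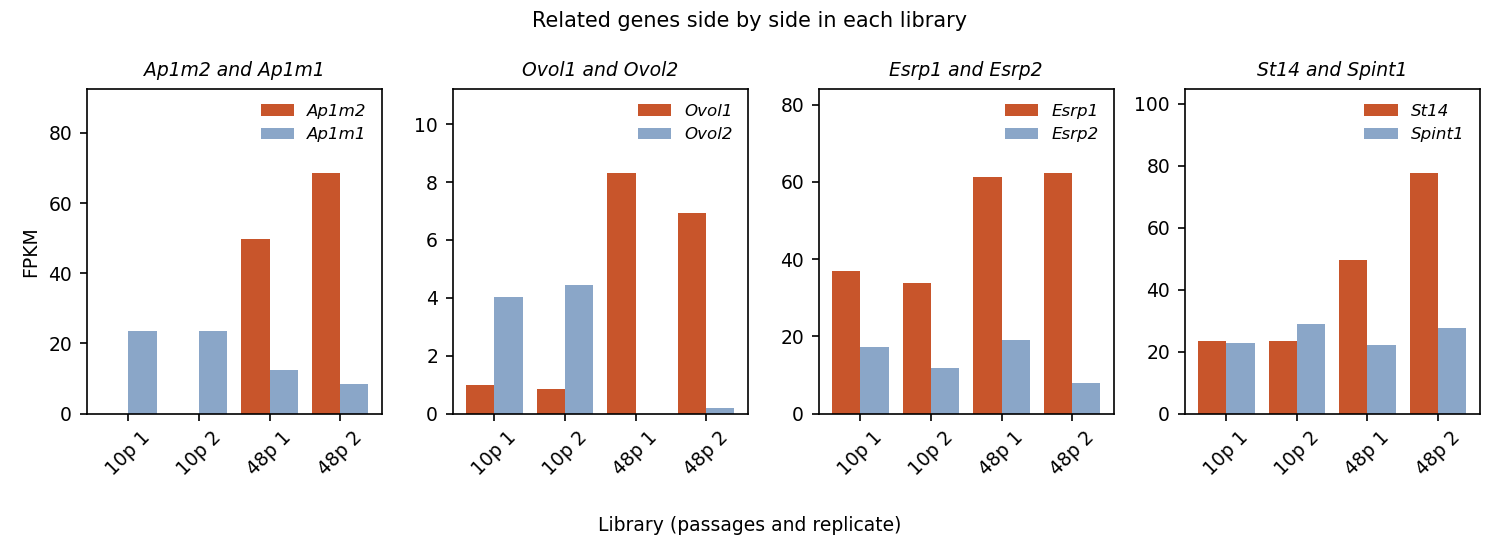
FPKM of members beside a related gene in each of the 4 libraries, with both genes of a panel on one scale. Ap1m1 and Ovol2 are the lower gene in 48p-HFSCs and the higher gene in 10p-HFSCs of their panels.

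The sorting genes Ap1m2 and Rab25 were both called higher. Ap1m2 encodes the epithelial medium subunit of the clathrin adaptor AP-1, which sorts cargo to the basolateral surface. It is on chromosome 9 at 21294275-21312337 of the minus strand (mm10), with 11 exons. Listed at 0 in both 10p libraries, it was at 49.9 and 68.5 FPKM in the 48p libraries, where its mean of 59.2 ± 13.2 FPKM (SD, n = 2) was number 4 among 106 tested genes that were listed at 0 in both 10p libraries. In the opposite direction 107 tested genes were listed at 0 in both 48p libraries. No fold can be given against values of 0. The log2(FPKM + 1) difference was 5.89 (SE 0.29, adjusted p = 0.00081, limma). It ranged from 5.67 to 9.19 over the 15 alternatives, highest with a pseudocount of 0.1. Some of these could not change it. An adjusted p under 0.1 is the same fit with a looser limit, and leaving out a 10p library, listed at 0, leaves the difference at 5.89. Ap1m2 is among the increases that the study itself singled out on these libraries, so the call is no independent evidence.

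Ap1m1, which encodes the medium subunit found in most cell types, moved the opposite way. It was at 23.6 and 23.6 FPKM in 10p-HFSCs and at 12.3 and 8.32 FPKM in 48p-HFSCs (log2 difference -1.14, adjusted p = 0.041, limma). Without the filter on low values the adjusted p was 0.068, and as TPM it was 0.10. Ap1m2 made up 80.2% and 89.2% of the summed FPKM of both subunits in 48p-HFSCs. The transcripts share a longest stretch of 26 bases. Genes beside Ap1m2 on the chromosome were present in all libraries, with Kri1 at 13.2 and 14.4 FPKM in 10p-HFSCs and at 18.5 and 17.7 FPKM in 48p-HFSCs.

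The genes nearest to Ap1m2 by Euclidean distance over the 4 libraries on the log2(FPKM + 1) scale were H2-K1 (0.306), Dpep1 (0.312), Dppa4 (0.526), Nxf7 (0.605) and S100a1 (0.656). Dpep1 and Nxf7 were also listed at 0 in both 10p libraries, and the others were at 0.250 FPKM or less there.

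Rab25, a small GTPase of the RAB11 group that works in apical recycling (chromosome 3, 88542029-88548300, minus strand), was at 61.0 and 77.4 FPKM in 10p-HFSCs and at 166 and 273 FPKM in 48p-HFSCs. The groups did not overlap, with means of 69.2 ± 11.6 and 219 ± 75.7 FPKM (SD, n = 2 each) and a ratio of 3.17. The log2 difference was 1.61 (SE 0.36, adjusted p = 0.029, limma), and it was 1.03 as TPM (adjusted p = 0.049984) and 1.01 with the term for length and GC (adjusted p = 0.026), close to the limits of a call. The call was lost without the filter on low values (adjusted p = 0.057, limma). With a library left out the log2 difference of Rab25 ranged from 1.26 to 1.97. Such a fit leaves a lone library in a group, so these sizes do not show whether the call holds. Of 14 other AP-1 and RAB11 genes 13 were tested, 0 were called higher and 2 lower, and at an unadjusted p under 0.05 there were 4 higher and 3 lower. Beside Ap1m1, the gene called lower was Rab11fip5, a RAB11 effector, which fell from 35.8 ± 1.503 to 15.6 ± 0.218 FPKM (adjusted p = 0.024, limma). With the term for length and GC its log2 difference was -0.95, under the fold limit. Their median log2 difference was 0.03.

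Promoter sequences from RefSeq (GRCm38.p6), from 250 bases before to 50 bases after the start, were at hand for 5 of the 10 genes: Ap1m2, Rab25, Epcam, Spint1 and Grhl1. They were searched on both strands for CAGGTG, the E-box bound by SNAI and ZEB factors, and for the grainyhead motif AACCGGTT and its shorter form AACCGG, which lies within it. The promoters that hold the E-box are printed 5′ to 3′ on the strand of the gene, with each E-box, in either orientation, in capitals. They are chr9:21312284-21312583 (minus strand) for Ap1m2, chr3:88548230-88548529 (minus strand) for Rab25 and chr17:87635729-87636028 (plus strand) for Epcam.
Ap1m2: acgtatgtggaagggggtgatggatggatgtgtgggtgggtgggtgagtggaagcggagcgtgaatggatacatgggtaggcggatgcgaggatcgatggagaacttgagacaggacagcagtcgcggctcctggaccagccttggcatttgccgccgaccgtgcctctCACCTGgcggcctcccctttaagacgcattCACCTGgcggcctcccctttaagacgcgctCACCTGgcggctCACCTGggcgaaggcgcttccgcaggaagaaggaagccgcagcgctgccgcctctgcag
Rab25: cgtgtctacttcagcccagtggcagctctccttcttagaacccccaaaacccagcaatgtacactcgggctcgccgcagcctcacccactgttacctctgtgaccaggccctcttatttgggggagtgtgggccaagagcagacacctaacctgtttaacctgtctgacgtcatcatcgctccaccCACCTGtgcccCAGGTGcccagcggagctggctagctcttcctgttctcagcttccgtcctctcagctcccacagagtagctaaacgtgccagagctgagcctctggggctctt
Epcam: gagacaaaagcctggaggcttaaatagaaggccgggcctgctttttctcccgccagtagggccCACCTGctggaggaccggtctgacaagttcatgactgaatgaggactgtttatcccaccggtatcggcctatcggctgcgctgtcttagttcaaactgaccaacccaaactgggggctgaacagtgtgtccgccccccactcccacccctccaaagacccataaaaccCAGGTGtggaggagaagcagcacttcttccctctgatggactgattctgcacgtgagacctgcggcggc
The Ap1m2 promoter held 4 E-boxes, beginning at -81, -51, -21 and -9 from the start, and 2 of them lay in copies of a repeat of 28 bases. Rab25 and Epcam held 2 each. Of 32851 promoters in the table, 20.2% held at least 1 E-box, 2.88% at least 2 and 0.0548% at least 4. The Spint1 promoter held the shorter grainyhead form at -63, as did 6.83% of all promoters in at least 1 copy, and the full motif was in 0 of the members' promoters and in 0.146% of all. A match is a description of letters, and no binding was measured here.

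**Figure D3:**
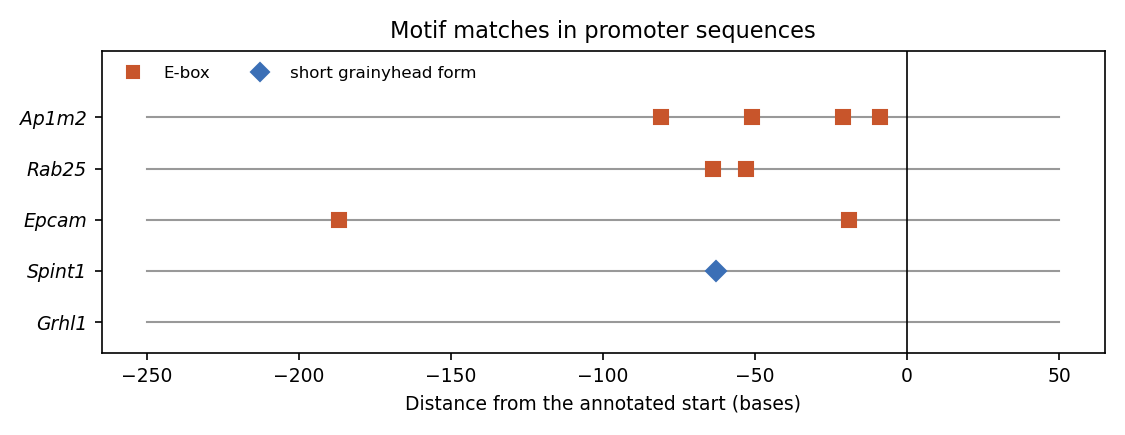
Positions of motif matches in the promoters of the members that had a sequence, as distance in bases from the start of the gene. Ap1m2 holds 4 E-box matches, Rab25 and Epcam hold 2 each, and Spint1 holds the shorter grainyhead form.

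Factors that bind the E-box to repress epithelial genes were listed among the mesenchymal genes. Of 11 mesenchymal genes 4 were tested, 0 were called higher and 1 lower, with 0 higher and 2 lower at an unadjusted p under 0.05 and a median log2 difference of -0.88. Snai2 was at 100.8 and 111 FPKM in 10p-HFSCs and at 69.9 and 86.4 FPKM in 48p-HFSCs (adjusted p = 0.29, limma). Snai1 was at most 0.151 FPKM and Zeb1 at most 0.00873 FPKM in any library, and Zeb2 and Twist1 were listed at 0 in all. Twist2, named here after its values were seen, did not pass the filter on low values and was at 0.0441 and 0.0615 FPKM in 10p-HFSCs and at 3.35 and 0.849 FPKM in 48p-HFSCs. Snai3 was at 2.76 ± 0.413 and 4.98 ± 0.853 FPKM (adjusted p = 0.14). Vim, the intermediate filament protein of mesenchymal and of many cultured cells, fell from 306 ± 30.7 to 2.71 ± 0.516 FPKM (adjusted p = 0.00056, limma). Fn1, which encodes fibronectin, was at 6.18 ± 2.61 and 1.85 ± 0.807 FPKM (adjusted p = 0.059).

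Markers of other cell types moved between the groups too. The 8 fibroblast markers summed to 68.9 and 60.2 FPKM in the 10p libraries and to 0.185 and 0.242 FPKM in the 48p libraries. Nearly all of this was Col1a2, while Dcn, Lum and Thy1 were listed at 0 in all libraries. The 5 leukocyte markers summed to 0.641 and 0.694 FPKM against 64.3 and 104 FPKM, nearly all of it Cd74, with Ptprc at most 0.0711 FPKM and Cd3e and Tyrobp at 0. Lyz2, another of the 5, rose from 0.383 to 2.50 FPKM (adjusted p = 0.023, limma). Lyz2 and the melanocyte marker Tyr passed the filter on low values only through the 48p libraries, which favoured a higher 48p level in both. Melanocyte markers summed to 1.43 to 1.503 and 4.06 to 11.9 FPKM, with Dct at 0 in all libraries. Most of the melanocyte sum in 48p replicate 2 was Tyr, at 0.0945 and 0.286 FPKM in 10p-HFSCs and at 1.33 and 9.48 FPKM in 48p-HFSCs (adjusted p = 0.083, limma), and Pmel was at 0.203 and 0.354 against 0.367 and 1.36 FPKM. Endothelial markers summed to 2.30 to 2.54 and 0.292 to 1.37 FPKM, with Pecam1 the highest of them in the 10p libraries and Cdh5 at 0 there. The part of other cells in the members' differences was not tested.

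Of the membrane proteins, St14 rose, Spint1 did not separate the groups and Epcam lay lower in both 48p libraries without passing the test. St14, which encodes matriptase (chromosome 9, 31089402-31131853, minus strand), was at 23.6 and 23.5 FPKM in 10p-HFSCs and at 49.6 and 77.6 FPKM in 48p-HFSCs. The groups did not overlap, although the 48p libraries were far apart. The ratio of means was 2.70, and the log2 difference was 1.36 (SE 0.30, adjusted p = 0.028, limma). The adjusted p was 0.054 without the filter on low values and 0.25 as TPM. With a library left out the log2 difference ranged from 1.04 to 1.68, sizes that do not show whether the call holds.

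Spint1, which encodes the matriptase inhibitor HAI-1 (chromosome 2, 119237362-119249527, plus strand), was at 22.7 and 29.0 FPKM in 10p-HFSCs and at 22.2 and 27.6 FPKM in 48p-HFSCs. The libraries of the groups interleaved, with a log2 difference of -0.05 (95% interval -0.72 to 0.61, adjusted p = 0.91, limma). The ratio of St14 to Spint1 was 1.04 and 0.811 in the 10p libraries and 2.23 and 2.81 in the 48p libraries. Of 13 other genes of the matriptase and prostasin system 8 were tested, 0 were called higher and 1 lower, with 2 higher and 3 lower at an unadjusted p under 0.05 and a median log2 difference of 0.12. The gene called lower was Prss22, a serine protease of epithelia, which fell from 16.2 ± 0.911 to 2.85 ± 0.205 FPKM (adjusted p = 0.0043, limma).

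Epcam, an adhesion molecule of epithelial cells (chromosome 17, 87635979-87651129, plus strand), was the highest of the 10 genes in 10p-HFSCs. It was at 338 and 288 FPKM in 10p-HFSCs and at 150 and 238 FPKM in 48p-HFSCs. Both 48p values lay below both 10p values, and the mean was 1.61-fold lower. The log2 difference was -0.72 (95% interval -1.65 to 0.21, adjusted p = 0.22, limma). It was called lower as TPM, at -1.30 (adjusted p = 0.012, limma) against the median of -0.55 for all genes. After quantile normalisation it was also called lower, at -1.21 (adjusted p = 0.013, limma). With median-of-ratios scaling it was not called, at -0.72 (adjusted p = 0.22, limma). Without 48p replicate 1 it was -0.39. Among 9 adhesion and junction genes, 5 were tested, 2 were called higher and 0 lower, also 0 lower at an unadjusted p under 0.05, with a median of 0.36. Cldn4, which encodes a tight junction claudin, rose from 62.9 ± 0.0868 to 283 ± 129 FPKM (adjusted p = 0.018, limma).

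**Figure D4:**
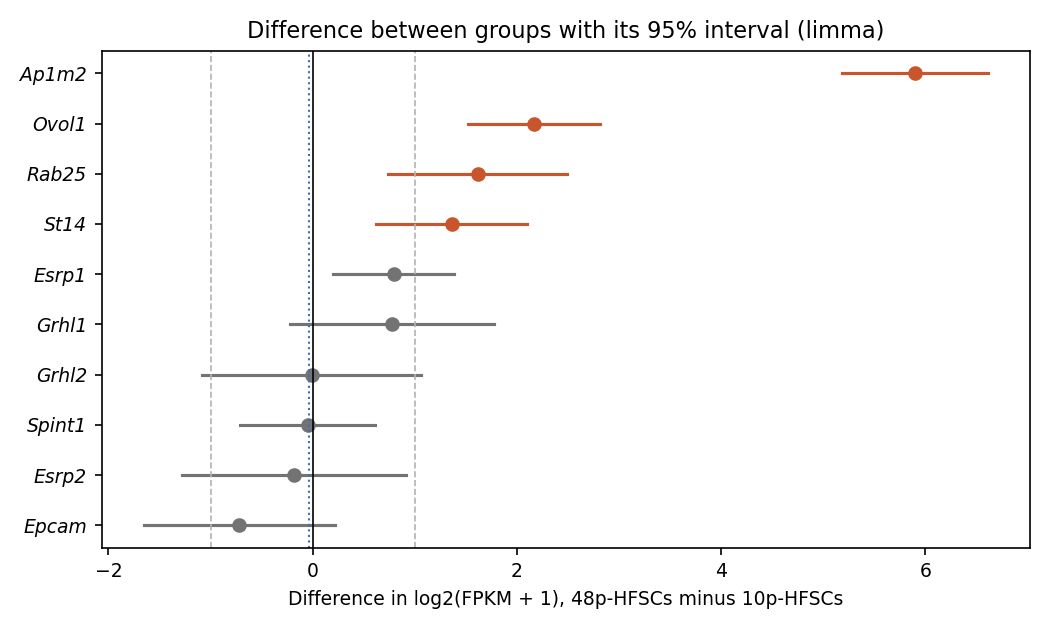
Difference of 48p-HFSCs minus 10p-HFSCs on the log2(FPKM + 1) scale for each of the 10 genes, with 95% intervals from limma. Dashed lines mark -1 and 1, the dotted line marks the median of all genes tested (-0.03), and the intervals of Ap1m2 and Ovol1 lie wholly above 1.

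On the FPKM scale, which is per length, the order of levels in 10p-HFSCs was Epcam, Rab25, Esrp1, Spint1, St14, Grhl2, Esrp2, Grhl1, Ovol1 and Ap1m2. Spint1 and St14 overlapped, as did Grhl2 and Esrp2, and the other neighbours did not. In 48p-HFSCs the order was Rab25, Epcam, St14, Esrp1, Ap1m2, Spint1, Grhl2, Esrp2, Ovol1 and Grhl1. Only 2 neighbouring pairs of that order, Epcam with St14 and Ap1m2 with Spint1, had libraries that did not overlap. Rab25 was at 0.181 and 0.269 of the level of Epcam in the 10p libraries and at 1.10 and 1.15 of it in the 48p libraries.

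The 48p libraries differed from each other in a way that in part followed transcript length. Replicate 2 was below replicate 1 by more than 1 on the log2 scale for Esrp2 (-1.16), Grhl1 (-1.08) and Grhl2 (-1.21), whose transcripts are 3536, 3469 and 4947 bases long. It was above replicate 1 for Rab25 (0.72), Epcam (0.66) and St14 (0.63), with transcripts of 1081, 2040 and 3259 bases. Over 10612 genes the difference between replicates had a correlation across genes with log2 length of -0.38 in 48p-HFSCs and -0.50 in 10p-HFSCs, a description in which the genes share libraries. At least 2-fold differences between replicates were seen in 16.98% of genes in 48p-HFSCs and in 1.37% in 10p-HFSCs. The part of this in the wide intervals of Esrp2, Grhl1 and Grhl2 was not tested.

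**Figure D5:**
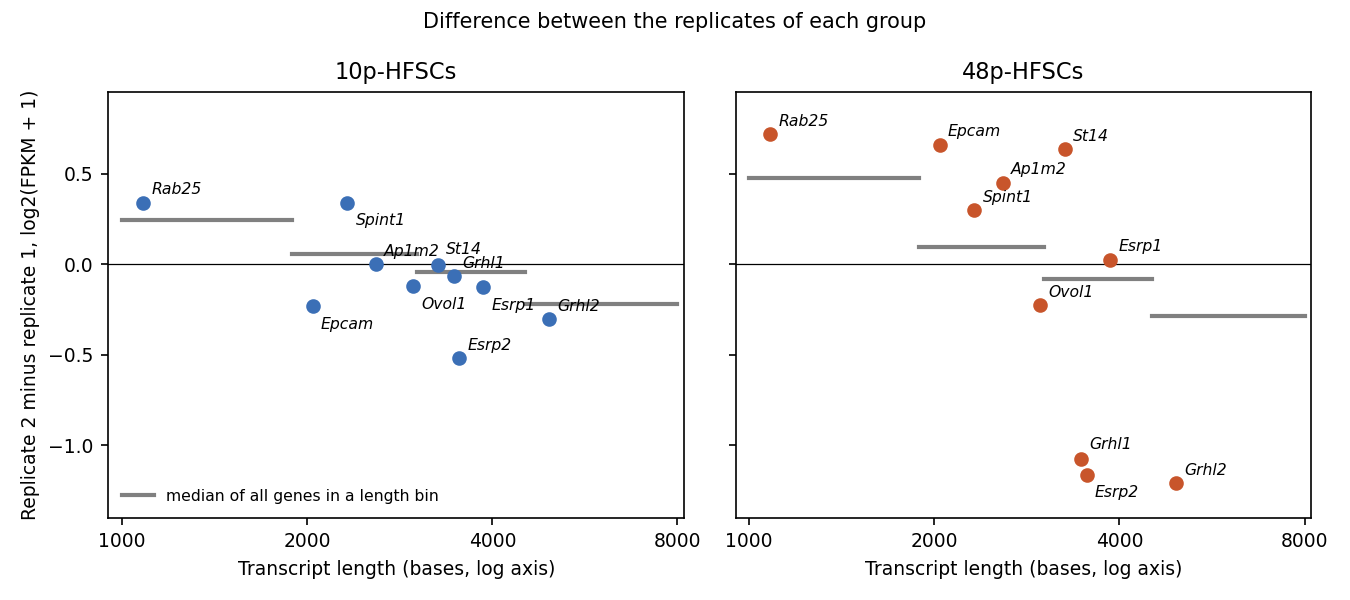
Replicate 2 minus replicate 1 on the log2(FPKM + 1) scale against transcript length in bases (log axis) for the 10 genes, with a panel for 10p-HFSCs and one for 48p-HFSCs. Grey lines mark the median of all genes in each of 4 length bins, with the outer bins drawn to the edge of the plot, which in 48p-HFSCs goes from 0.47 in the shortest bin to -0.29 in the longest.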

How the data were processed

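RNA-seq of 2 libraries of 10p-HFSCs and 2 of 48p-HFSCs (total RNA, TruSeq stranded mRNA kit) was analysed from FPKM per gene as deposited by the authors. The submitters' processing notes name TopHat2 2.1.1, Bowtie2 2.2.8, SAMtools 0.1.18, Cuffdiff 2.2.1 and mm10; the study's methods give other versions of some of these. The gene annotation, strand setting and treatment of multi-mapping reads are not given in the sources used here.

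Genes that reached 1 FPKM in 2 or more libraries (11018 of 24346) were fitted on log2(FPKM + 1) with limma 3.58.1 in R 4.3.3 (eBayes with trend), with Benjamini-Hochberg adjustment over all genes tested and a call at adjusted p under 0.05 together with a log2 difference of 1 or more in size. An exact permutation test of 2 against 2 libraries cannot give a two-sided p below 0.333. The script was tested on simulated data. Counts of reads were not used, so no counting intervals are given.

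Named genes are the 10 members, the called genes of each related list (all tested genes where 4 or fewer passed the filter), the 5 genes nearest to Ap1m2, and markers. The members and lists were chosen with earlier results of these data known. Alternatives were the pseudocount (0.1), no filter, a mean of at least 1 FPKM, TPM, median-of-ratios scaling, quantile normalisation, a constant variance prior, a replicate block, an adjusted p under 0.1, leaving out each of 4 libraries, and a term for length and GC without and with the block, both chosen after seeing the data, 15 in all. Gene positions and lengths are from GENCODE for mm10. Protein identity between paralogs was not run. Some genes of the related lists are counted but not reported here by name.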

Additional observations from a re-analysis of the deposited data

How the results depend on the processing

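The number of members called higher, 4, was 2 without the filter on low values and 2 as TPM. Leaving out a library left 1 in its group, so only sizes are given for those fits, and they do not show whether a call holds. The log2 difference then ranged from 5.67 to 6.12 for Ap1m2 and from 2.05 to 2.28 for Ovol1. It ranged from 1.26 to 1.97 for Rab25 and from 1.04 to 1.68 for St14. The number called lower, 0, was 1 as TPM and 1 after quantile normalisation, in both cases Epcam. Among the related genes the number called higher, 6, was 3 as TPM, 10 with an adjusted p under 0.1 and 10 with the replicate number as a block. The number called lower, 6, was 7 as TPM and 9 with the replicate number as a block. Of the called related genes that are named, Vim kept its call without 10p replicate 1 and without 10p replicate 2, and Grhl3, Zfp750, Ehf, Ovol2, Mbnl1, Ap1m1, Rab11fip5, Prss22 and Cldn4 lost theirs in both cases (adjusted p of 0.055 to 0.39, limma). Without 48p replicate 2, Mbnl1 (-0.99) and Ap1m1 (-0.89) fell under the fold limit. With 3 libraries a lone library is assumed to vary like the other group. The direction reversed for Grhl2 after quantile normalisation (0.061) and after length and GC correction (0.23, and 0.23 with the replicate block as well). Without a library the log2 differences ranged from -0.77 to 0.39 for Esrp2, from -0.61 to 0.59 for Grhl2 and from -0.22 to 0.12 for Spint1. With the replicate block the members still gave 4 higher and 0 lower, while all genes gave 1613 higher and 1497 lower against 1189 and 1008 without it. TPM gave 620 higher and 820 lower over all genes, and no filter 816 and 637. Deviations of same-numbered libraries correlated at 0.408, but with 2 pairs and no label for a shared batch the numbers were not taken to pair the libraries. The causes were not tested. Depth limits the low genes most, and gene-level FPKM give no counts from which to set an interval.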

Other observations

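Some related genes did not pass the filter on low values and were not tested, and these were picked out after their values were seen. Rbm47, an RNA-binding protein of epithelia, was at 0.0327 and 0 FPKM in 10p-HFSCs and at 0.918 and 0.420 FPKM in 48p-HFSCs. Myo5b, a motor that works with RAB11 proteins, was at 1.30 and 0.858 FPKM in 10p-HFSCs and at 0.101 and 0.0812 FPKM in 48p-HFSCs.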
